A study of Mus musculus with 12 samples.

Results

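The Ces2 genes of the mouse encode the carboxylesterase 2 family, and 7 of the 21911 protein-coding genes of GENCODE M21 belong to it: Ces2a, Ces2b, Ces2c, Ces2e, Ces2f, Ces2g and Ces2h. For each gene, peaks of histone H3 lysine 9 acetylation (H3K9ac) were taken in a window that joins the gene body with 5 kb on either side of its start. The family was selected because a region at Ces2h carried H3K9ac in MSM and not in B6, so every comparison of the strains at these genes is given as a description, with no test. The mark had been measured in the liver of adult mice by ChIP-seq, the sequencing of DNA from immunoprecipitated chromatin. The 6 libraries analysed here came from 2 mice of the strain C57BL/6J (B6), 2 of MSM/Ms (MSM), and 1 F1 hybrid from each of the reciprocal crosses, F1 BM with B6 as the mother and F1 MB with MSM as the mother. No treatment or transgene was named for any group. The mm10 reference is the sequence of B6, whereas MSM, an inbred line, goes back to wild mice of Japan. Each F1 cross had 1 library, so its values carry no replicate error.

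Carboxylesterases are serine hydrolases of the endoplasmic reticulum that cleave ester and amide bonds in drugs, other foreign compounds and lipids. Enzymes of the carboxylesterase 2 class are abundant in liver and intestine, where they activate ester prodrugs and hydrolyse acylglycerols. In mammals the genes lie in tandem arrays that arose by duplication, and neighbouring copies can be very similar. H3K9ac is a mark of active promoters and enhancers, and it peaks on the nucleosomes next to a transcription start.

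The 7 genes lay on the plus strand of chromosome 8 of mm10 (GRCm38), within 287 kb from 104734003 to 105021178. In order along the chromosome they were Ces2a (ENSMUSG00000055730.16, 104734003 to 104741634), Ces2b (ENSMUSG00000050097.6, 104831572 to 104840093), Ces2c (ENSMUSG00000061825.10, 104847068 to 104854483), Ces2e (ENSMUSG00000031886.14, 104926260 to 104934672), Ces2f (ENSMUSG00000062826.7, 104947356 to 104960047), Ces2g (ENSMUSG00000031877.9, 104961718 to 104969537) and Ces2h (ENSMUSG00000091813.4, 105000853 to 105021178). Ces3a and Ces3b, carboxylesterases of another class, began 27.4 and 62.6 kb beyond the end of Ces2h on the same strand. Pseudogenes lay between the members, among them Ces2d-ps and Gm8798.

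H3K9ac peaks were found at both ends of this cluster. Ces2a, at one end, had peaks in B6 and in both hybrids, and Ces2h, at the other end, had peaks in MSM and in both hybrids. The sequences before the starts of these genes are shown first, since both genes had a peak beginning at or near the start. They are the 250 bases before the RefSeq start on the plus strand of GRCm38.p6, chr8:104733753-104734002 for Ces2a and chr8:105000580-105000829 for Ces2h. Capitals mark the motifs AGGTCA and CCAAT on either strand, in Ces2a a CCAAT on the minus strand directly followed by an AGGTCA with no shared base.
Ces2a promoter: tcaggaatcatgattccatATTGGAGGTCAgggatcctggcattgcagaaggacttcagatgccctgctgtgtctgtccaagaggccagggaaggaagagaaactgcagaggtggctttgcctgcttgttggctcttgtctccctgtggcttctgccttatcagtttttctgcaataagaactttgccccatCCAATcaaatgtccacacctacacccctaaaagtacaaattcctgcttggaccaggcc
Ces2h promoter: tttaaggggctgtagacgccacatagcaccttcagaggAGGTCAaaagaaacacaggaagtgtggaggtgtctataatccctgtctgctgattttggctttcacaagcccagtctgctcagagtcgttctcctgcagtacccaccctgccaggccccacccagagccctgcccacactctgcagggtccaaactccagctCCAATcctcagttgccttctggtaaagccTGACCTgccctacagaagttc
The RefSeq start of Ces2a is that of GENCODE, and the RefSeq start of Ces2h lies 23 bp before that of GENCODE.

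A CCAAT box, bound by the factor NF-Y, lay at -58 from the RefSeq start in Ces2a and at -50 in Ces2h, on the plus strand in both, counted at its leftmost base. AGGTCA, the half-site of many nuclear receptors, began at -226 in Ces2a on the plus strand, and in Ces2h at -212 on the plus strand and at -21 on the minus strand. The only match in Ces2c was a CCAAT on the minus strand at -117, and in Ces2g a CCAAT on the minus strand at -96. None of the 6 motifs searched was present in the 250 bases before Ces2e and Ces2f, and Ces2b had no entry in the table. Among 32851 RefSeq promoters of the same length, 33.8% held CCAAT and 14.02% held AGGTCA on either strand. The other motifs had no match in the 6 members, namely TATAAA (12.4% of all promoters), GTTAAT (6.43%), CAAAGTCC (1.196%) and TTGCNCAA (2.61%). A match describes the letters only.

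The summits of the start peaks lay downstream of these promoters, and the stretches around them are shown because they mark where the signal was highest in each library. In the stretch of Ces2a, chr8:104734129-104734278, and in that of Ces2h, chr8:105000929-105001064, both on the plus strand of GRCm38, capitals run from the lowest to the highest summit of the 4 libraries with a peak.
Ces2a summits: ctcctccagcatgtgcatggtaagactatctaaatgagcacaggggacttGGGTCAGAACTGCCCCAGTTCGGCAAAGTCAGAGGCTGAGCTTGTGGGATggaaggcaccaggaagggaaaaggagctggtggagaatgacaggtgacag
Ces2h summits: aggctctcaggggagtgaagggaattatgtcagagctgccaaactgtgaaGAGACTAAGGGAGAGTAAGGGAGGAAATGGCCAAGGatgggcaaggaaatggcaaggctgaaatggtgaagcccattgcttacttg
The 4 summits of Ces2a spread over 49 bp and those of Ces2h over 35 bp. The stretch of Ces2a covers the end of the coding sequence of exon 1, which ends at 104734147, and the beginning of an intron of 549 bp. The stretch of Ces2h lies wholly in intron 1, since exon 1 ends at 105000925. Intron 1 of Ces2h spans 13525 bp, and exon 2 has 205 bp in Ces2a, Ces2e and Ces2h alike.

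Of the 7 members, 1 had a peak in both MSM lists and in neither B6 list, Ces2h, against 100 of all protein-coding genes (0.456%). In the opposite direction, 1 of 7 had a peak in both B6 lists and in neither MSM list, Ces2a, against 199 genes (0.908%). These shares are set side by side only, because the members were selected on the same contrast. None of the 7 had a peak in all 6 lists (28.5% of all genes did), and 4 of 7 had none in any list, namely Ces2b, Ces2c, Ces2f and Ces2g (47.2% of all genes had none). Ces2e had a peak in B6 replicate 1 alone. Without B6 replicate 2, which had the shortest list, the B6-only count was 2, Ces2a and Ces2e. It was 0 with the same covered length in every list and 0 with peaks of a fold of at least 4 alone, so the call of Ces2a was lost in both. The lists differed in length, from 22968 peaks in B6 replicate 1 to 11619 in B6 replicate 2, and the MSM lists held 17310 and 17584 peaks, F1 BM 20173 and F1 MB 13235. The deposited lists hold no read counts, so a gene without a listed peak may have one too weak to be called at the depth of that library.

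**Figure D1:**
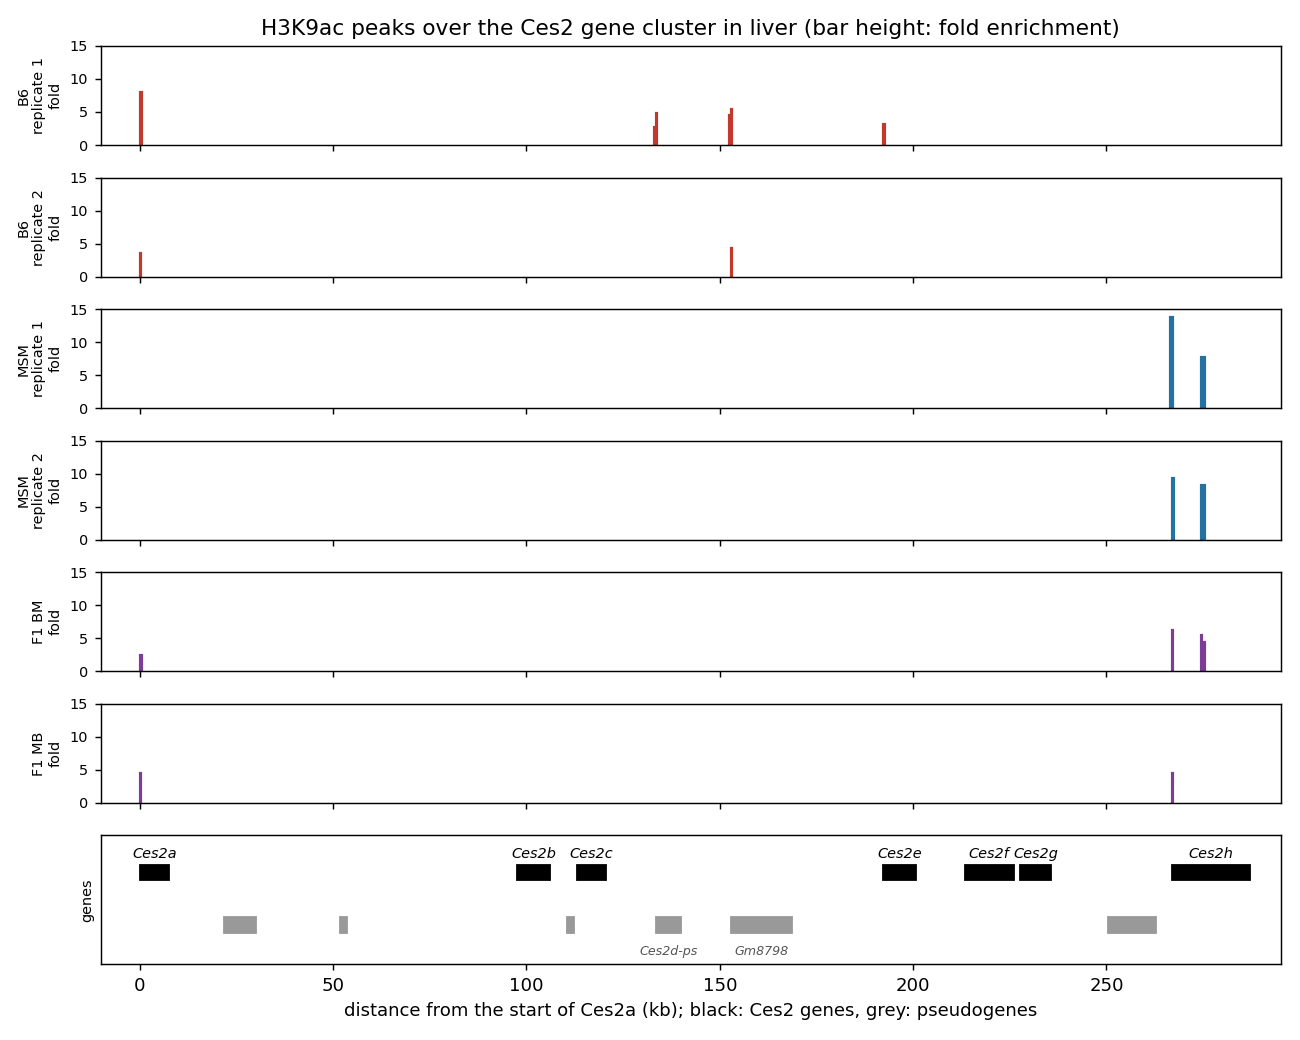
H3K9ac peaks along the Ces2 cluster, 1 row per library, with distance from the start of Ces2a in kb on the x axis and fold enrichment as bar height on the y axis; bars have an outline that widens the narrow peaks, and genes are drawn in the bottom row. B6 libraries have a peak at Ces2a and none at Ces2h, MSM libraries have peaks at Ces2h and none at other places in the cluster, and the hybrids have peaks at both.

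The highest H3K9ac of the family was at the start of Ces2h. A fold enrichment, as deposited, is the signal at a peak's summit over the background of the authors' peak caller. The peak over the start ran from 105000490 to 105001318 in MSM replicate 1 with a fold enrichment of 13.8, and from 105000846 to 105001380 in MSM replicate 2 with 9.38. In F1 BM it ran from 105000837 to 105001331 with a fold of 6.19, and in F1 MB from 105000939 to 105001175 with 4.55. Neither B6 list had a peak there. The lower MSM fold exceeded both hybrid folds, but the lists differed in their median fold. It was 4.93 in MSM replicate 1, 4.996 in MSM replicate 2, 3.38 in F1 BM and 4.57 in F1 MB. By its standing within its own list, given next, the F1 BM peak was not below that of MSM replicate 2. The F1 MB peak was below those of both MSM replicates.

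The −log10 of the q-value of this peak was 43.5 in MSM replicate 1, 33.6 in MSM replicate 2, 26.1 in F1 BM and 6.52 in F1 MB. Within its own list, the peak had a fold at or above that of 98.99% of the peaks in MSM replicate 1, 91.6% in MSM replicate 2, 92.5% in F1 BM and 49.2% in F1 MB. It thus stood among the strong peaks of 3 lists and in the middle of the F1 MB list. The summits lay 126, 161, 141 and 160 bp after the start in the same order of libraries, in intron 1, and 237 bp were covered in all 4 lists, which is the whole F1 MB peak. The mean fold in MSM was 11.6 ± 3.13 and the mean width 682 ± 208 bp (SD, n = 2 each).

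A further H3K9ac region lay inside intron 1 of Ces2h, more than 7 kb after the start. It ran from 105008394 to 105009416 in MSM replicate 1 (1023 bp, fold 7.82) and from 105008391 to 105009446 in MSM replicate 2 (1056 bp, fold 8.24). F1 BM had it as a pair of peaks, from 105008410 to 105008754 with a fold of 5.45 and from 105008821 to 105009416 with 4.42. F1 MB and both B6 lists had no peak there. The MSM replicates lay close together in fold (8.03 ± 0.298) and in width (1039.5 ± 23.3 bp, SD, n = 2 each), with a lower spread than at the start peak. The MSM summits lay 8187 and 8184 bp after the start.

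Over the whole Ces2h window, peaks covered 1852 and 1591 bp in the MSM libraries, 1436 bp in F1 BM, 237 bp in F1 MB and 0 bp in both B6 libraries. MSM exceeded B6 by 1721.5 bp, and the strains did not overlap (within-strain SD, pooled, 130.5 bp). Counting only the 1 kb on either side of the start, the difference was 682 bp. By the lower fold of its MSM libraries, 9.38, Ces2h ranked 1 among the 100 MSM-only genes, whose median was 4.31. This rank describes the choice of the family and supports nothing. Of the 100 MSM-only genes, 55 had a peak in F1 BM, 25 in F1 MB and 25 in both hybrids, and Ces2h was one of the latter.

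The stretch of intron 1 between the start peak and the intronic peak is taken up by a repeat element in the B6 reference. It ran from 105001230 to 105008511 (7282 bp) and was masked as repeat over its whole length. Its ends were formed by direct repeats, of 380 bp from 105001230 to 105001609 and of 382 bp from 105008130 to 105008511, which were 100% identical where aligned. The alignment of 382 bp began at 105001228, before the left edge. The first bases given for the right repeat were thus aligned to host bases, and its greater length comes from this. Identical long terminal repeats at both ends are the form of a retrotransposon with long terminal repeats, a class of elements that copy themselves through RNA and duplicate a few host bases where they insert. No repeat annotation was used here, so the element is given by its form and not by a family name.

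The host bases on either side are shown because they mark both edges of the element, chr8:105001200-105001229 before it and chr8:105008512-105008541 after it, on the plus strand of GRCm38. Capitals mark the 5 bases that occur on both sides, and the letters of the element are left out.
Before the element: ctcaagatgacgagtcaggacattcCCTAT
After the element: CCTATagctaagctacaggcaagtactaaa

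The MSM peaks reached these edges from outside and ended a short way inside. The start peak went 89 and 151 bp into the element in MSM replicates 1 and 2, and 102 bp in F1 BM. In F1 MB it stopped 54 bp before the edge. From the other side, the intronic peak went 118, 121 and 102 bp into the element in MSM replicate 1, MSM replicate 2 and F1 BM. All these ends fell within the terminal repeats. In none of the 6 lists did a peak cover any of the 6520 bp between the terminal repeats, and the uncovered gap between the peaks was 7075, 7010 and 7078 bp in MSM replicate 1, MSM replicate 2 and F1 BM. Reads from copies of a repeat can have more than 1 place in the genome, so a lack of peaks there is no measure of H3K9ac. Whether MSM carries the element was not tested, since no MSM genome was used here. The study mapped read pairs with a maximal insert of 10000 bp, which is longer than the element.

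**Figure D2:**
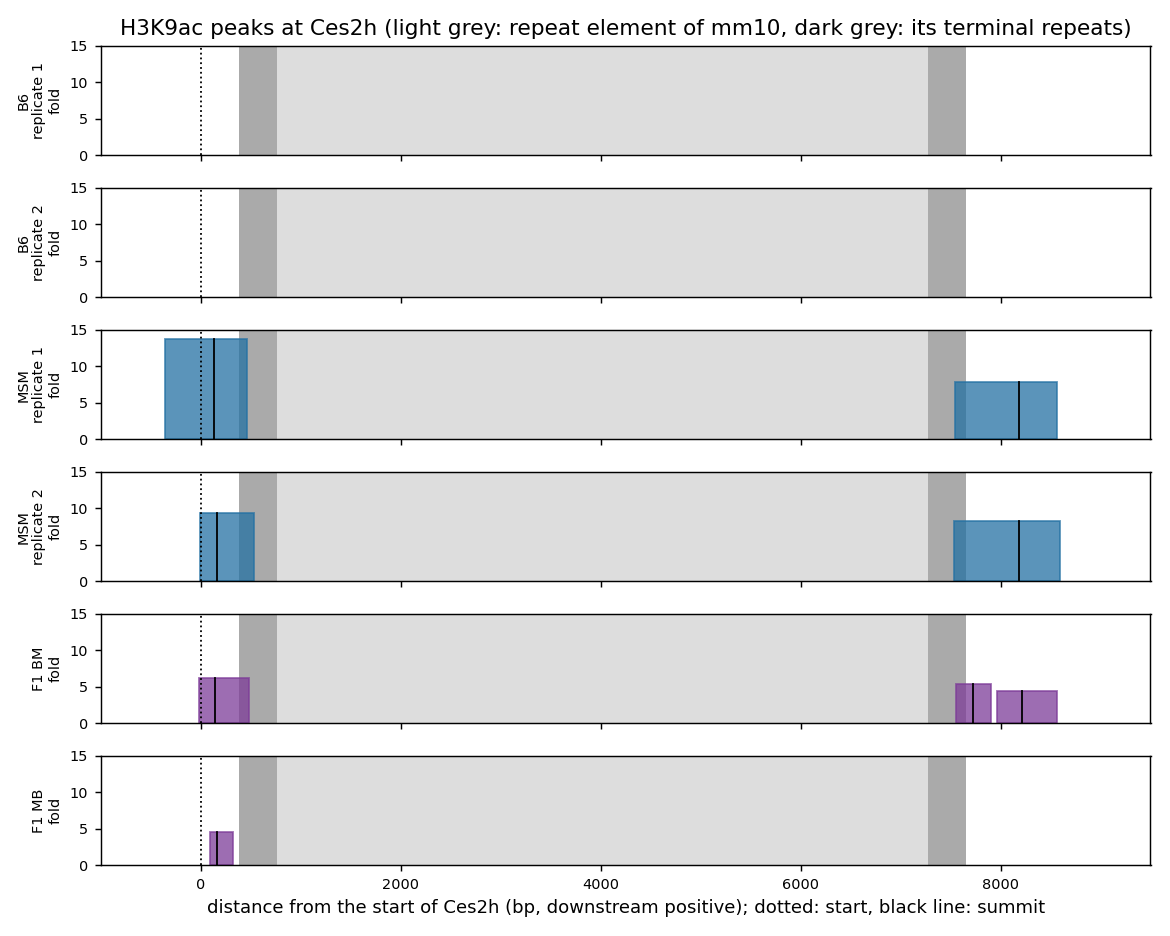
H3K9ac peaks at Ces2h, 1 row per library, with distance from the start in bp on the x axis and fold enrichment as bar height on the y axis; light grey is the repeat element of the reference, dark grey its terminal repeats, and black lines are summits. MSM and F1 BM peaks lie on both sides of the element, and those nearest to it end within its terminal repeats. The further intronic peak of F1 BM lies wholly outside the element. F1 MB has the start peak only, and both B6 rows are empty.

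Copies of the same element were looked for across the reference to see how often strain-specific peaks lay at both edges. There were 5564 alignments of the terminal repeat of at least 200 bp and at least 80% identity, which formed 1552 pairs on one strand 4 to 9 kb apart. Of these pairs, 10 had a peak of any B6 or MSM list within 500 bp outside an edge. An edge was MSM-only when both MSM lists and neither B6 list had a peak there. The element in Ces2h was the 1 pair with MSM-only peaks outside both edges, and no other pair had one outside at least 1 edge. In the opposite direction, 0 pairs had B6-only peaks outside both edges and 3 had one outside at least 1 edge. This search was chosen after the peaks at Ces2h had been seen.

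Similar copies can draw reads to a wrong gene, so the peak regions were compared with the rest of the reference. Outside the element, all 691 stretches of 50 bases (50-mers, the length of a read) in the Ces2h start region and all 886 in the intronic region occurred at 1 place in the genome (100%). With repeats masked, neither region aligned to any other place at an e-value of 1e-10 or below. Over the whole regions, the part inside the element included, the share at 1 place was 87.3% for the Ces2h start and 92.4% for the intronic region, and single 50-mers occurred up to 1138 and 2075 times. The whole peak region of Ces2a had 96.8% of its 50-mers at 1 place, and its best other alignment was 87.5% identical over 602 bp at Gm7208 on the same chromosome. Copies that MSM has and the B6 reference lacks were not tested.

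The start windows of the 7 members, 1 kb on either side, were less alike in this respect. The share of 50-mers at 1 place was 88.6% for Ces2a, 99.8% for Ces2b, 100% for Ces2c, 98.3% for Ces2e, 97.8% for Ces2f, 93.7% for Ces2g and 67.0% for Ces2h. The 4 members without any peak had shares of 93.7% or more, and the lowest share belonged to the member with the highest peak, whose window takes in part of the element. These shares cover the start windows of the B6 reference only, whereas peaks were counted over the gene bodies as well. Their part in the presence of peaks was not tested.

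Ces2a, an enzyme of liver and intestine with acylglycerol hydrolase activity, had the opposite pattern at the other end of the cluster. Its peak ran from 104734006 to 104734609 (604 bp) in B6 replicate 1 with a fold of 8.05, and from 104734146 to 104734385 (240 bp) in B6 replicate 2 with 3.56. In F1 BM it ran from 104734086 to 104734521 (436 bp) with a fold of 2.48, and in F1 MB from 104734059 to 104734352 (294 bp) with 4.57. Neither MSM list had a peak there, and the B6 and hybrid folds overlapped.

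The B6 libraries differed in strength at Ces2a. The −log10 q was 26.5 in B6 replicate 1 and 4.67 in B6 replicate 2, with 4.77 in F1 BM and 6.19 in F1 MB. Its fold was at or above that of 78.5% of the peaks in B6 replicate 1 but only 19.98% in B6 replicate 2, 10.5% in F1 BM and 49.8% in F1 MB. B6 averaged 5.80 ± 3.18 in fold and 422 ± 257 bp in covered length (SD, n = 2 each), against 0 bp in MSM, a difference of -422 bp beside a pooled within-strain SD of 182 bp. With every list cut to the same covered length, B6 replicate 1 lost the peak, and with a fold of at least 4 B6 replicate 2 lost it, and no member was B6-only in either case.

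The summits of Ces2a lay 198, 225, 176 and 209 bp after the start in B6 replicate 1, B6 replicate 2, F1 BM and F1 MB, all in intron 1. The 4 lists shared 207 bp, from 104734146 to 104734352. By the lower fold of its B6 libraries, 3.56, Ces2a ranked 153 among the 199 B6-only genes, whose median was 4.09. Of these genes, 125 had a peak in F1 BM, 64 in F1 MB and 53 in both hybrids, Ces2a included.

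**Figure D3:**
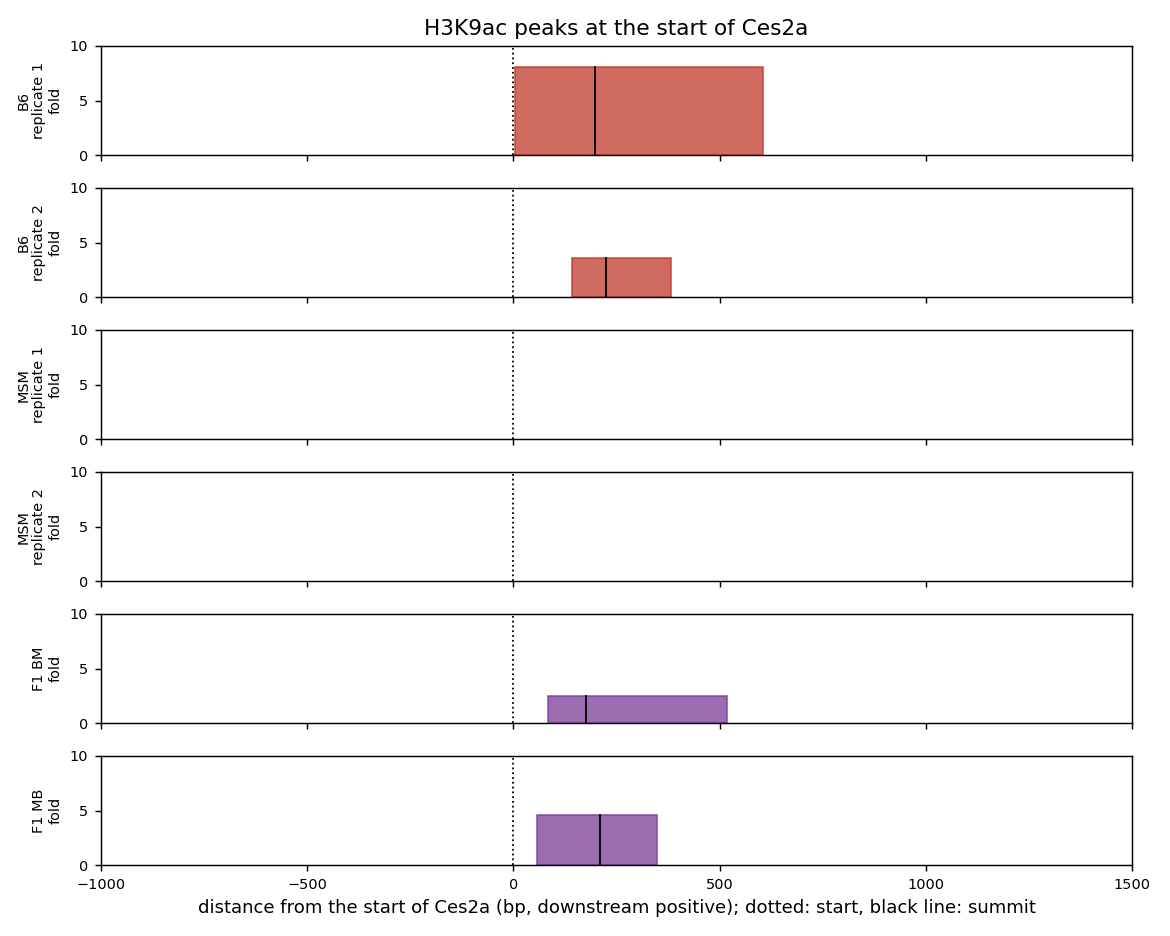
H3K9ac peaks at the start of Ces2a, 1 row per library, with distance from the start in bp on the x axis and fold enrichment as bar height on the y axis; black lines are summits. Both B6 libraries and both hybrids have a peak within 606 bp after the start, with folds from 2.48 to 8.05, and both MSM rows are empty.

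Ces2e had 1 peak in B6 replicate 1, from 104926273 to 104926673 (401 bp), with a fold of 3.25 and a −log10 q of 6.18. Its summit lay 131 bp after the start in a coding exon, and 90.1% of the peaks of that list had a higher fold. No other list had a peak at Ces2e, and the difference between strains of -200.5 bp equalled the pooled within-strain SD of 200.5 bp. The strains overlapped, since B6 replicate 2 and both MSM libraries were at 0 bp.

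Ces2b, Ces2c, Ces2f and Ces2g had 0 bp covered in all 6 lists. Ces2c encodes a liver acylcarnitine hydrolase. The windows of Ces2f and Ces2g overlapped by 3330 bp, so these genes are not independent in such a count. Peaks that are listed at 0 here may have been below the depth of the libraries.

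Summed over the windows of the 7 members, the covered length was 1005 bp for B6 replicate 1, 240 bp for B6 replicate 2, 1852 bp for MSM replicate 1, 1591 bp for MSM replicate 2, 1872 bp for F1 BM and 531 bp for F1 MB. B6 had a mean of 622.5 ± 541 bp and MSM one of 1721.5 ± 185 bp (SD, n = 2 each), a difference of 1099 bp beside a pooled within-strain SD of 404 bp. The whole MSM length came from Ces2h. Within 1 kb of the starts alone, the difference was 59.5 bp. F1 BM, with 4 peaks at the members, held peaks at Ces2a and at both Ces2h regions, and F1 MB, with 2, held the start peaks of both genes.

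Between the members, 5 peaks lay outside the windows, the nearest 12456 bp beyond Ces2c, and all were in B6 lists. B6 replicate 1 had a pair near the start of the pseudogene Ces2d-ps, with folds of 2.69 and 4.87, and a pair near the start of the pseudogene Gm8798, with 4.52 and 5.45. B6 replicate 2 had 1 peak at Gm8798, with a fold of 4.34. The regions at the pseudogenes were 100% identical to each other, and 0% of their 50-mers occurred at 1 place, so reads there cannot be assigned to one of the copies. No MSM or hybrid list had a peak between the members.

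Most of the other carboxylesterases had a peak in every library. Of 12 such genes, 7 had a peak in all 6 lists (28.5% of all genes did), and 4 had none in any list (47.2% of all genes had none). Ces1f, Ces3b, Ces1d and Ces1c had the highest median folds of the 12. None was MSM-only or B6-only, where the shares over all genes would give about none in a list of 12. The neighbours Ces3a and Ces3b had peaks in every library. The highest fold at Ces3a was 7.83 and 4.81 in the B6 libraries, 7.30 and 6.75 in the MSM libraries, 5.40 in F1 BM and 4.31 in F1 MB. At Ces3b it was 9.76 and 3.84 in B6, 6.72 and 8.08 in MSM, 7.68 in F1 BM and 6.90 in F1 MB. B6 and MSM folds overlapped at both genes. Ces1f, a lipid hydrolase of liver, had the highest median fold of the 12, with 11.1 and 4.48 in B6, 9.01 and 7.42 in MSM, 8.77 in F1 BM and 5.55 in F1 MB.

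**Figure D4:**
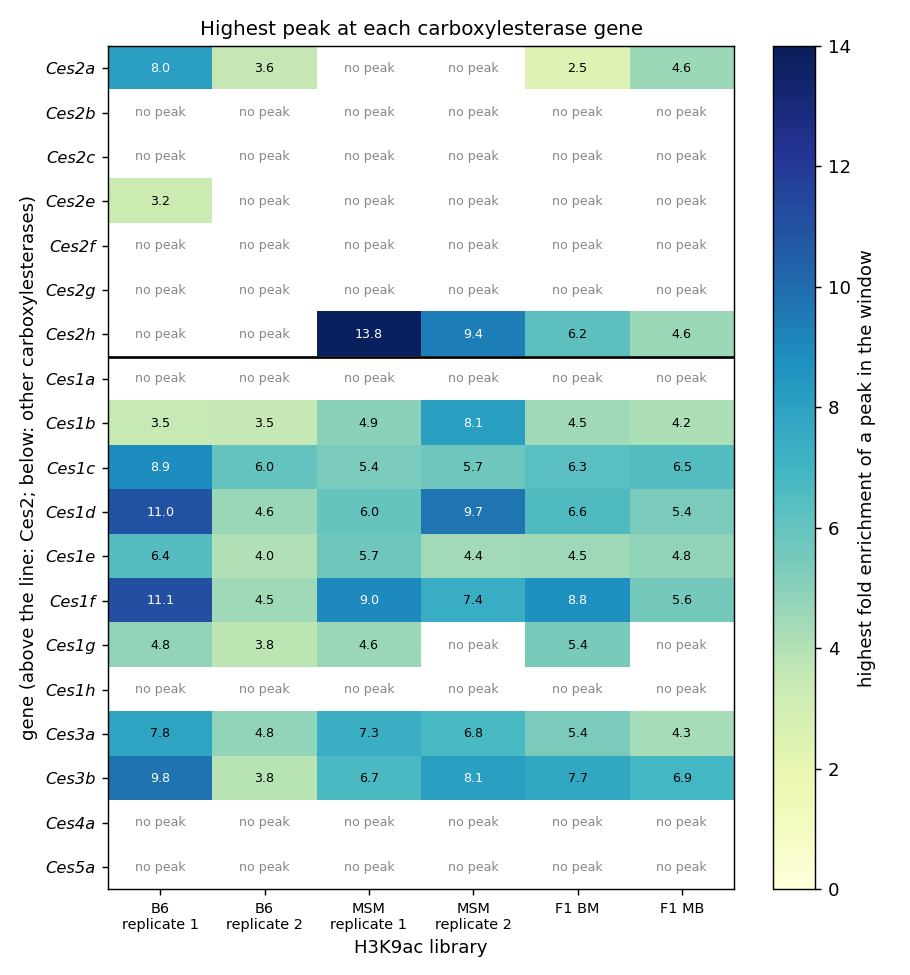
Highest fold enrichment of a peak in the window of each carboxylesterase gene (y axis) in each H3K9ac library (x axis), with the colour and the printed value giving the fold and white cells marking no peak. Above the line, Ces2h is marked in MSM and hybrids and Ces2a in B6 and hybrids; below it, 7 of the 12 other genes are marked in all 6 libraries.

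Genes around the cluster and of the same pathway are given beside the shares over all genes, of which 28.5% had a peak in all 6 lists, 0.456% were MSM-only and 0.908% B6-only, so that a count of 0 strain-specific genes in lists this short is no result about them. Within 200 kb of the members, 7 of 10 protein-coding genes had a peak in all 6 lists, and 0 were MSM-only or B6-only. A further 3 had none in any list, against 47.2% of all genes. A pair of these neighbours had the same highest fold in each list, and Ces3a and Ces3b also belong to the other carboxylesterases above. The counts are thus not independent. Among 14 genes of liver ester and lipid metabolism, 11 had a peak in all 6 lists and 0 were specific to a strain. Pon1, which encodes paraoxonase, had folds of 10.01 and 11.2 in B6, 12.7 and 13.1 in MSM, 9.25 in F1 BM and 10.6 in F1 MB. All 12 regulators of liver and xenobiotic genes had a peak in all 6 lists. Hnf4a, a nuclear receptor that maintains the hepatocyte programme, led them with 14.3 and 12.4 in B6, 16.1 and 14.1 in MSM, 14.2 in F1 BM and 12.3 in F1 MB.

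Markers of liver cells were checked in the same lists, beside shares over all genes of 28.5% with a peak in all 6 lists and 47.2% with none in any. All 7 hepatocyte markers, Apob and Apoa1 among them, had a peak in all 6 lists, and 0 of 5 Kupffer cell markers had one in any list. Of 5 endothelial markers, all had a peak in some list and 0 in all 6, and B6 replicate 2 had none of them. Of 4 markers each, 1 had a peak in any list for stellate cells (Dcn, in F1 BM), cholangiocytes (Sox9), lymphocytes (Ptprc) and intestinal epithelium (Fabp2). Sox9, Ptprc and Fabp2 each had theirs in B6 replicate 1 alone, and these 4 markers were named after their values had been seen. The part of cell types in the Ces2 values was not tested. In whole tissue, fewer cells with a mark and less of the mark per cell cannot be told apart.

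By the highest fold of a peak in the 6 lists, the genes nearest to Ces2h on the log2 scale were Slc10a2, C6, Hmgn3, Cldn18 and Gm379, with Euclidean distances of 0.89, 0.98, 0.99, 1.31 and 1.33. Slc10a2, a bile acid transporter, had folds of 8.58 and 6.93 in the MSM libraries, 4.98 in F1 BM and 3.97 in F1 MB. C6, a component of complement, had 8.47 and 6.53 in MSM, 6.91 in F1 BM and 6.02 in F1 MB. Hmgn3, a nucleosome-binding protein, had 7.95 and 7.56 in MSM, 5.09 in F1 BM and 3.41 in F1 MB. None of the 5 had a peak in a B6 list. The distance ran over all 6 lists, those without a peak included, so nearness to Ces2h favoured genes without B6 peaks. The lower MSM fold of each was below the 9.38 of Ces2h, which had to be so, since Ces2h ranked 1 among the MSM-only genes. The likeness is over 6 libraries that set the order for all genes, and it is a description.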

How the data were processed

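The authors fixed adult liver, immunoprecipitated H3K9ac-bearing chromatin and sequenced it as 50-bp read pairs. Their methods name Trim Galore and Bowtie 2 with a maximal insert of 10000 bp on mm10, whereas the submitters' processing notes name Trim Galore, HISAT2, SAMtools and MACS2. Versions, the settings of the peak caller and its use of the 6 input libraries, not analysed here, are not given in the sources used here. Replicates were called separately. The deposited lists gave each peak a fold enrichment (a linear ratio), the −log10 of its p- and q-value, and a score that was not used. The lowest −log10 q of the lists lay between 1.30 and 1.35. The lists hold no read counts, and the sequencing depth stated in the study's methods was not used here.

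The members and gene lists were chosen with earlier results of these data known, and the element search and printed summit stretches after the peaks had been seen. A peak counted when it overlapped a window by at least 1 bp. Values are given per library with mean and SD, and with 2 libraries per strain no test was made. The text names the 7 members, and listed genes with strain-specific calls or else up to 4 with the highest median fold. Of the genes within 200 kb it names Ces3a and Ces3b. It also names the 5 genes nearest to Ces2h, without Ces genes. Positions were compared with Python 3.11.15 and numpy 2.4.6, sequences with BLAST 2.17.0 and pysam 0.24.0, and figures drawn with matplotlib 3.10.9. Scripts were tested on simulated data. Chromosome lengths of the reference fitted all peaks. RefSeq promoters matched 6 of 7 members. Alternatives were equal list length or covered length, a −log10 q of at least 3, a fold of at least 4, at least 50% of a peak inside the window, other windows, and each parental replicate left out.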

Additional observations from a re-analysis of the deposited data

How the results depend on the processing

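The member counts (MSM-only, B6-only and all 6 lists) and the MSM minus B6 covered lengths of Ces2a, Ces2e, Ces2h and the family were recomputed under 11 alternatives. Each alternative only removed peaks, narrowed the window or left out a library. With 0 bp in MSM at Ces2a and Ces2e and 0 bp in B6 at Ces2h, these differences could not turn. The family difference could have turned, and it kept its direction in all 11. Counts over other genes and in the hybrids were not recomputed. The MSM-only count, 1, was the same in all 11, but its member, Ces2h, is the one the family was selected for. The count of members with a peak in every list used was 0 in all 11. No alternative could raise it, since every member lacked a peak in both lists of at least 1 strain. The B6-only count, 1 (Ces2a), became 0 with the same covered length in every list and with a fold of at least 4, and ranged from 1 to 2 with each parental replicate left out. MSM minus B6 in covered length at Ces2a, -422 bp, was -120 bp with the same covered length and ranged from -604 to -240 bp with a replicate left out. At Ces2e the difference of -200.5 bp became 0 bp when lists had an equal number of peaks, the same covered length or a fold of at least 4. It ranged from -401 to 0 bp with a replicate left out. At Ces2h it was 682 bp within 1 kb of the start and 1536.5 bp in the gene body alone. With a replicate left out, the Ces2h difference ranged from 1591 to 1852 bp. Over the family it was 1601.5 bp with the same covered length and 59.5 bp within 1 kb of the starts. With a replicate left out, the family difference ranged from 716.5 to 1481.5 bp. The values within 1 kb of the starts follow from that window, which leaves out the intronic region of Ces2h, and the losses at Ces2a and Ces2e from peaks removed by the cuts. The search for paired terminal repeats gave 1 pair with a window of 1000 bp and without each parental replicate in turn. That pair was the one in Ces2h, which none of these changes could remove, so only further pairs could have changed the count. No paired analysis was possible because the values come from no test and the replicate numbers name different mice. Peaks too weak for the depth of a list are missing from it, and B6 replicate 2, with 11619 peaks, was the shortest.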
